A study of Homo sapiens with 6 samples.

Results

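The S100 calcium-binding proteins are described here in HaCaT cells, a human keratinocyte line that grows without limit, after histamine. The family was represented by 10 genes, S100A2, S100A4, S100A6, S100A7, S100A8, S100A9, S100A10, S100A11, S100A14 and S100P, taken as every probe whose annotated symbol is one of these names. They had 12 of the 47322 probes on the array, and all 12 probes passed the detection filter, as 10 of the 10406 genes tested. The 10 were chosen with the differences between the groups of these same arrays already known, so their differences with histamine are a description, and no p-value is given for them. The standard errors (SE) and intervals printed for these genes take no account of this choice and are not read as tests of a difference. They also borrow from the variance of other genes. The histamine group held 3 samples of HaCaT cells exposed to 1 µg/ml histamine for 24 h, and the control group held 3 samples of the same line whose agent label reads control. The labels carry the same treatment text for all samples, so the groups follow the titles and the agent label. All were grown in DMEM with 1.5 mM calcium and 10% serum, and total RNA of each sample was hybridized to 1 Illumina HT-12 bead array. The labels describe the samples as a triplicate without saying whether they are separate cultures, so the spread between arrays may be technical. In that case the SEs and intervals may be too narrow.

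S100 proteins are small EF-hand proteins that work mostly as dimers and change shape when they bind calcium. Inside the cell they bind annexins, cytoskeletal proteins and enzymes, and several are released and act on receptors such as RAGE (AGER) and TLR4. Most of the genes lie together on chromosome 1 in the epidermal differentiation complex, next to the genes of the cornified envelope. In skin, S100A7, S100A8 and S100A9 are known as antimicrobial proteins that are abundant in psoriasis and in wounds, while S100A2, S100A6, S100A10, S100A11 and S100A14 are present in keratinocytes at rest.

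The arrays had a median probe signal of 121 to 124 in the histamine group and 122 to 141 in the control group. All 5 keratinocyte markers with a named probe (KRT5, KRT14, DSP, PKP1 and ITGB4) were detected on every array. Calprotectin is also a main protein of neutrophils and monocytes. Of the 12 myeloid markers, 6 were detected on no array, namely PTPRC, TYROBP, FCER1G, MPO, CSF3R and CD163. The other 6 were detected on at least 1 array. CD14 and FCGR3B had a probe detected on all 6 arrays, with bead signals of 415 to 465 with histamine and 384 to 521 in the control group for CD14, and of 209 to 228 with histamine and 277 to 324 in the control group for FCGR3B; ITGAM, LYZ, CSF1R and AIF1 were detected on some arrays. The part of such cells in the S100A8 and S100A9 values was not tested. The summed signal of all 12 was 1831 to 1842 on the histamine arrays and 1903 to 2169 on the control arrays. Skeletal muscle transcripts stood out on 1 library: 19 of 20 muscle markers were detected on histamine replicate 1, against 6 and 8 on the other histamine arrays and 1 to 3 on the control arrays. Their summed signal was 39056, 3430 and 3410 on the histamine arrays and 2330 to 2667 on the control arrays. For the 4 erythroid markers it was 1274, 518 and 539 on the histamine arrays and 491 to 604 on the control arrays. Sample names of the 2 groups come from different numbered series, and such a series and the treatment cannot be told apart here. In bulk RNA, fewer cells that express a gene and less RNA per cell cannot be told apart either.

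The 4 genes S100A8, S100A9, S100A7 and S100P were higher with histamine, and for the other 6 the difference did not pass the threshold, an adjusted p-value under 0.05 in a limma fit across all genes. Over all genes 9.29% passed it as higher, 12% as lower and 21.3% in either direction; since the family was chosen on this contrast, nothing is read from its share. The normalized values of the 2 groups did not overlap for the same 4 genes, and for 37.4% of all genes (14.4% with histamine higher, 22.9% with histamine lower). The 3 genes S100A8, S100A9 and S100A7 passed with a fitted difference of 2-fold or more, as did 2.74% of all genes as higher. The median log2 difference was 0.29 over the 10 genes and -0.08 over all genes tested. No S100 gene of the 10 passed the threshold as lower.

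**Figure D1:**
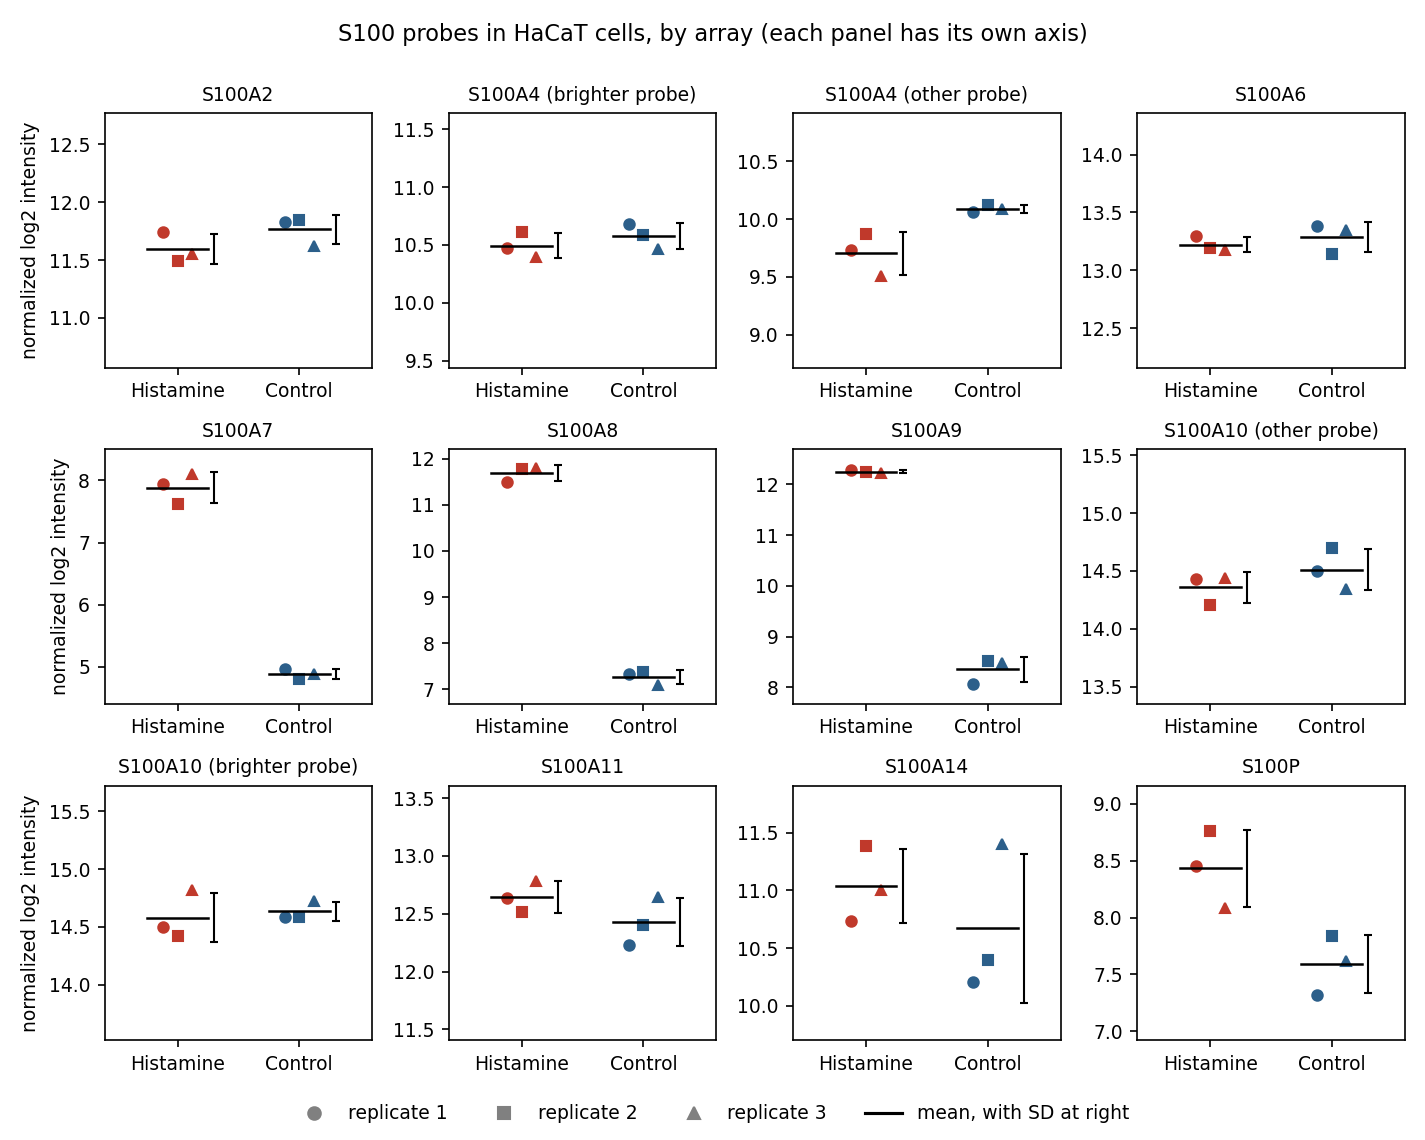
Normalized log2 intensity of the 12 S100 probes on the 3 histamine arrays (red, left of each panel) and the 3 control arrays (blue, right); marker shapes give the replicate, lines the mean and bars the SD. The groups are far apart for S100A8, S100A9 and S100A7, closer for S100P and overlapping for S100A2, S100A6, S100A10, S100A11 and S100A14; control replicate 3 is the highest array for S100A14, at 11.40.

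S100A8 and S100A9 are the subunits of calprotectin, a heterodimer that withholds zinc and manganese from microbes. The normalized log2 intensity of S100A8 was 11.49, 11.77 and 11.80 on histamine replicates 1, 2 and 3, against 7.33, 7.38 and 7.09 on control replicates 1, 2 and 3. Before normalization its bead signals were 2769, 3029 and 3703 on the histamine arrays and 259, 330 and 225 on the control arrays. Every histamine array was thus far above every control array, and the transcript was detected on all 6. The log2 difference was 4.42 ± 0.13 (SE, n = 3 per group), or 21.4-fold. S100A9 had log2 intensities of 12.29, 12.25 and 12.22 with histamine and 8.08, 8.53 and 8.48 in the control group. Its histamine arrays lay within an SD of 0.03, against 0.25 for the control arrays. The log2 difference of S100A9 was 3.89 ± 0.13, or 14.9-fold. Among all 10406 genes, ordered by their difference, S100A8 stood at place 3 and S100A9 at place 4.

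Within each array, the S100A8 value minus the S100A9 value was -0.80, -0.48 and -0.43 on the histamine arrays (mean -0.57 ± 0.20, SD) and -0.74, -1.15 and -1.39 on the control arrays (mean -1.09 ± 0.32, SD). The ranges of the groups overlap through histamine replicate 1 and control replicate 1, and whether the subunits changed by unequal amounts was not tested. The log2 differences of S100A8 and S100A9 were 3.75 and 3.54 without background correction, and 3.48 and 3.42 in the authors' processed value table. Since probes differ in brightness, the sign of these values does not tell which transcript is more abundant. Histamine replicate 1, the library with the most muscle markers detected, was 0.30 below the mean of the other histamine arrays for S100A8 and 0.05 above it for S100A9. Without that array the log2 differences were 4.51 and 3.87, though some muscle markers were detected on the other histamine arrays too. The genes whose profile over the 6 arrays lay nearest to that of S100A8 were S100A9, SAA1 and IL6, with a root mean square distance between gene-centred log2 values of 0.34, 0.55 and 0.60. This distance is taken over both groups, so a near gene must have a difference of like size, and it shows no more than that. SAA1 is an acute phase protein and IL6 a cytokine, and their log2 differences were 3.42 ± 0.23 and 3.23 ± 0.20.

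S100A7, or psoriasin, is an antimicrobial protein of the upper epidermis that binds zinc and acts against Escherichia coli. It was detected on all 3 histamine arrays and on no control array. Its log2 intensity was 7.94, 7.62 and 8.10 with histamine, against 4.97, 4.80 and 4.88 in the control group, where the signal is not well above background. The bead signals were 316, 262 and 373 on the histamine arrays, and 117, 128 and 125 on the control arrays, which lie near the median of all probes. On the background-corrected scale S100A7 was at least 5.59-fold higher with histamine, the mean of the histamine arrays set against the lowest level of a detected probe on each control array, and 5.19-fold to 6.13-fold with any 1 array left out. This bound holds for that background correction only. The mean bead signal, which contains the background, was 317 with histamine and 124 in the control group, and the log2 difference was 2.09 with an offset of 50, 1.50 without background correction and 1.09 in the authors' processed value table. S100A7 passed the detection filter only through the histamine arrays.

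S100P, first found in placenta, binds the cytoskeletal linker ezrin and is released by many carcinomas. Unlike the other 9, its gene lies on chromosome 4. Its log2 intensity was 8.45, 8.76 and 8.08 with histamine, against 7.32, 7.83 and 7.62 in the control group. All histamine arrays were above all control arrays on this scale, but the lowest histamine array, replicate 3, was only slightly above the highest control array, replicate 2. Before normalization the groups overlapped, with bead signals of 414, 460 and 371 with histamine and 258, 410 and 280 in the control group. The log2 difference was 0.84 ± 0.19, or 1.79-fold. Without 1 array at a time it ranged from 0.68, without histamine replicate 2, to 1.01, without histamine replicate 3.

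The start regions of these 4 genes are shown because each has a window that holds the letters TATAAA close before an annotated start. RefSeq (GRCh38.p14) promoter windows of 300 bases, 250 before and 50 after the annotated start, were matched for all 10 genes, 13 windows in all. In the windows below, matches to any of 6 motifs searched on both strands are in capitals. S100A8 is at chr1:153391024-153391323, minus strand (1 of its 3 annotated starts), S100A9 at chr1:153357604-153357903, plus strand and S100P at chr4:6693628-6693927, plus strand.
S100A8: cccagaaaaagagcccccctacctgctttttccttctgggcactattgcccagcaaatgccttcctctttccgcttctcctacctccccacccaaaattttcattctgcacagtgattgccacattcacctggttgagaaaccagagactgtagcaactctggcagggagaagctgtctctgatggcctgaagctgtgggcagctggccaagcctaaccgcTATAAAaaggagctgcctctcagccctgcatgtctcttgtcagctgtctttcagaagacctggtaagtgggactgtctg
S100A9: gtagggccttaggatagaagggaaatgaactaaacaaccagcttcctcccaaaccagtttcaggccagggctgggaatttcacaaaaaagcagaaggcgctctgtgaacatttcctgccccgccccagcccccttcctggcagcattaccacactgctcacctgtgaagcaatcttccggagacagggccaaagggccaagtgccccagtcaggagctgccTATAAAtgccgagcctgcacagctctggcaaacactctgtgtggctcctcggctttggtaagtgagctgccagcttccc
S100P: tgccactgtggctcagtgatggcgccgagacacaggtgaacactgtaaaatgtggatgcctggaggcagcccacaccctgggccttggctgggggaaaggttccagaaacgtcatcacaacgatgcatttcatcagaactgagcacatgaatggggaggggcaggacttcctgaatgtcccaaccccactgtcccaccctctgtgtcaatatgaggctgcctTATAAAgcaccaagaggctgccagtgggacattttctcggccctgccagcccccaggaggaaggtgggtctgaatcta
The only match in each is TATAAA, whose first base lies at -29 in S100A8 and S100A9 and at -28 in S100P, counted from the base before the start as -1. S100A7 holds it at -28. Of the other S100A8 windows, 1 holds it at -126 and 1 has no match. It is also in the window of S100A4 (-31), whose difference did not pass the threshold, and in none of the other 5 genes. Counted by window, 6 of the 13 windows and 11.5% of all 35116 windows have it. The other motifs were TGANTCA (AP-1; in S100A2 only, and in 7.71% of all windows), TTGCNNAA (C/EBP; in S100A11 only, and in 10.5%), ACGTG (the core of the hypoxia response element; in S100A10 only, and in 21.4%), TTCNNNGAA (STAT; in none of the 10, and in 7.66%) and a kappa B motif (in none, and in 0.558%). A match is a description of these letters and shows no binding.

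S100A7A, a close paralog of S100A7 on the same chromosome, has a start region that is nearly the same. Both windows are given with the bases that differ between them in capitals, S100A7 at chr1:153460602-153460901, minus strand, and S100A7A at chr1:153416270-153416569, plus strand.
S100A7: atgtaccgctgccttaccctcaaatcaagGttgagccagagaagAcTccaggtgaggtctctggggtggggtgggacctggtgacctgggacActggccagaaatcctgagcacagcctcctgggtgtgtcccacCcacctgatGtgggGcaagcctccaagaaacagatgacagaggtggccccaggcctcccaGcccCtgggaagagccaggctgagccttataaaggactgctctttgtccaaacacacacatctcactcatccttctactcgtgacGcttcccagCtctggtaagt
S100A7A: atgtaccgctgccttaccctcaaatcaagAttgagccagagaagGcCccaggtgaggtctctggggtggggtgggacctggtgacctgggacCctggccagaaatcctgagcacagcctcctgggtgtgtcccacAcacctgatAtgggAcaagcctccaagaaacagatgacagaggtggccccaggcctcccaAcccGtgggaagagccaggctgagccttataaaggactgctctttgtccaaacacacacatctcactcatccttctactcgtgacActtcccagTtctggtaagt
The windows were identical at 289 of 300 positions (96.33%) and differed at 11, and both hold the TATAAA match at -28. The array readings were not alike: the S100A7A probe was detected on 0 of 3 histamine arrays and 0 of 3 control arrays. Its normalized log2 intensity was 4.70, 4.71 and 4.82 with histamine and 4.63, 4.65 and 4.81 in the control group, all at background level.

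Among the 6 genes without a call, S100A14, a membrane-associated S100 protein of epithelia, varied most between arrays. Its log2 intensity was 10.74, 11.38 and 11 with histamine, against 10.21, 10.40 and 11.40 in the control group. Control replicates 1 and 2 were below every histamine array, and control replicate 3 was above them all. The log2 difference was 0.37 ± 0.22 (95% interval -0.10 to 0.83). This SE borrows from the variance of other genes, and the SDs of these arrays were 0.32 with histamine and 0.64 in the control group. It was 0.31 without the intensity trend and 0.37 with a robust form of the fit, so the interval may be too narrow. Without control replicate 3 the log2 difference was 0.73 and passed the threshold. S100A11, or calgizzarin, a partner of annexin A1, had log2 intensities of 12.64, 12.51 and 12.78 with histamine, against 12.23, 12.40 and 12.64 in the control group. Control replicates 1 and 2 were again below every histamine array, while control replicate 3 lay among them. Its log2 difference was 0.22 ± 0.11, and 0.32 without control replicate 3, which passed the threshold. The first principal component of all genes placed control replicate 3 at -15.5, control replicates 1 and 2 at -29.1 and -26 and the histamine arrays at 21.5 to 27.1. By contrast, for S100A8, S100A9, S100A7 and S100P control replicate 3 lay close to the other control arrays: on a scale where their mean is 0 and the histamine mean is 1, it stood at -0.06, 0.04, -0.0015 and 0.05. On that scale it stood at 1.49 for S100A14 and 1.00 for S100A11. How far that array's position over all genes enters into the S100A14 and S100A11 values was not tested.

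S100A10, S100A6 and S100A2 were bright on every array, and their groups overlapped. S100A10, which pairs with annexin A2 at the membrane and is locked in a calcium-bound-like shape, had log2 intensities of 14.50, 14.42 and 14.82 with histamine and 14.59, 14.59 and 14.73 in the control group on its brighter probe. The log2 difference was -0.05 ± 0.10 (95% interval -0.27 to 0.16), and its other probe gave -0.15 ± 0.11. The sign of the difference on the brighter probe turned with median scaling (0.0024). Its 2 probes gave bead signals of 17703 to 30431 with histamine and 20849 to 27140 in the control group. S100A6, or calcyclin, a marker of proliferating cells, differed by -0.07 ± 0.09 (13.30, 13.19 and 13.18 with histamine; 13.38, 13.14 and 13.34 in the control group). S100A2, a mainly nuclear S100 protein of basal keratinocytes, differed by -0.17 ± 0.11 (95% interval -0.39 to 0.05). It read 11.74, 11.49 and 11.55 with histamine, against 11.82, 11.85 and 11.62 in the control group. For these 3 genes the intervals leave out a change of 2-fold in either direction, which does not show that they did not change.

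S100A4, or metastasin, binds non-muscle myosin and is known from motile cells. Its 2 probes did not read alike. The brighter one gave 10.47, 10.61 and 10.39 with histamine and 10.68, 10.58 and 10.46 in the control group, a log2 difference of -0.08 ± 0.11. The other gave 9.73, 9.88 and 9.5 with histamine and 10.06, 10.13 and 10.08 in the control group, with no overlap. In a fit of all 17871 kept probes, of which 21.9% passed the threshold, its difference was -0.39 ± 0.13 and passed; it was the 1 S100 probe of the 12 called lower.

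Along chromosome 1, the 3 S100 genes that passed the threshold as higher lay close together. In the RefSeq gene order S100A9, S100A12, S100A8, S100A7A and S100A7 follow each other with no other protein-coding gene between them, and S100A12 and S100A7A, which lie among them, were detected on no array. The next genes are S100A6, S100A5, S100A4, S100A3, S100A2, S100A16, S100A14, S100A13 and S100A1. Among them S100A5 and S100A1 were not tested, and none of the others passed the threshold in the fit by gene. On the other side, beyond 47 genes that are not S100 genes, lie S100A11 and S100A10. From S100A10 to S100A1 there are 63 protein-coding genes, of which 21 were tested: 9 rose and 12 did not pass, none as lower, against 9.29% of all genes as higher and 12% as lower; 3 of the 9 are S100A8, S100A9 and S100A7, chosen on this contrast. Without the S100 genes, 9 of 47 were tested and 6 rose, which were FLG and 5 small proline-rich genes; SPRR2E and SPRR2F among these were detected on 0 and 1 of 3 control arrays, so they passed the filter through the histamine arrays. This stretch was chosen after its values were seen, and the SPRR2 genes are close paralogs, so which of them a probe measured is uncertain.

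**Figure D2:**
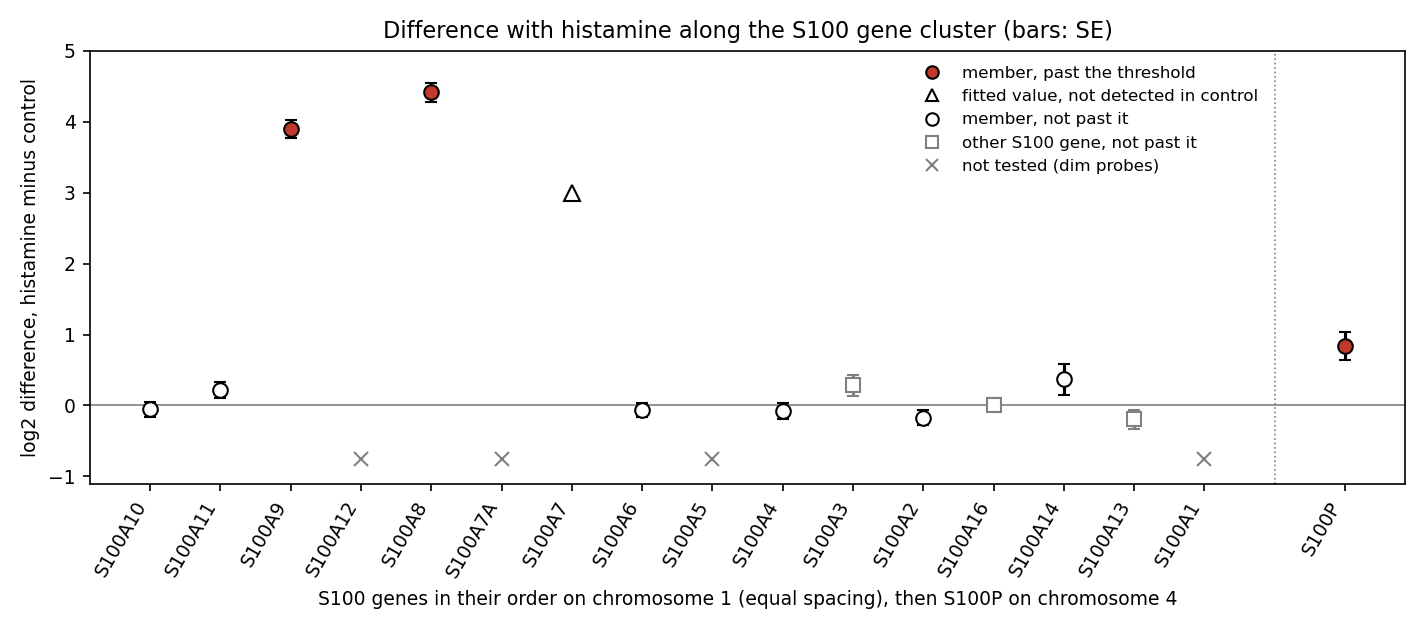
Log2 difference, histamine minus control, of the S100 genes in their order on chromosome 1 at equal spacing, and of S100P on chromosome 4; points are the fitted differences, bars the SE, and crosses genes not tested because their probes were too dim. S100A9 and S100A8 stand at 3.89 and 4.42 and S100A7 at a fitted 3.0 (triangle, no SE drawn) against control arrays where it was not detected, while the tested genes on both sides of them lie between -0.20 and 0.37.

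The other 11 S100 genes on the array, with 18 probes, are those left over when the 10 were chosen on this contrast, so their differences too are a description, with no p-value. S100A3, S100A13 and S100A16 passed the detection filter, and none of the 3 passed the threshold. S100A3, a cysteine-rich protein of the hair cuticle, read 8.41, 8.71 and 8.73 with histamine and 8.36, 8.31 and 8.32 in the control group; the arrays did not overlap, and the log2 difference was 0.29 ± 0.15. S100A16 differed by 0.01 ± 0.09 (95% interval -0.18 to 0.20). S100A13, which takes part in the release of IL1A and FGF1, differed by -0.20 ± 0.13 on its brightest probe, and its other kept probes gave -0.63 and 0.03. S100A12, S100A7A, S100A7L2, S100B, S100G and S100Z were detected on no array. S100A5 was detected on 1 control array and no histamine array. S100A1, the S100 protein of heart and skeletal muscle, was detected on 1 control array and on no histamine array. Its log2 intensity was 4.84 on histamine replicate 1, the library with the most muscle markers detected.

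Genes linked to S100 proteins moved in both directions. Over all genes tested, 9.29% passed the threshold as higher and 12% as lower, with a median log2 difference of -0.08, and the counts below stand beside these shares. The lists were chosen with earlier results of these data known, so their counts, medians and p-values are a description. Of the receptors for released S100 proteins, 5 of 11 were tested and 0 changed (limma; 2 had an unadjusted p under 0.05). BSG (basigin), a receptor of S100A9, differed by -0.28 ± 0.12 and ALCAM by -0.31 ± 0.14 (limma adjusted p = 0.115 and 0.127). NPTN (neuroplastin), a receptor of S100A8, differed by 0.01 ± 0.12 on its brightest probe and by 0.59 on another, which passed the threshold in the fit of single probes. TLR4 and LY96, its co-receptor, were detected on no array, and the 3 probes of AGER (RAGE) were detected on at most 1 array each, so a difference in these receptors was not detectable at this signal.

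Of the intracellular partners, 14 of 16 were tested, 1 rose, 2 fell and 11 did not pass; the median log2 difference was -0.07, against -0.08 over all genes. ANXA1, the annexin that binds S100A11, fell by 0.33 on the log2 scale (SE 0.09; limma adjusted p = 0.0179), with 13.39, 13.45 and 13.47 with histamine and 13.62, 13.83 and 13.83 in the control group. ANXA2, the partner of S100A10, differed by 0.01 ± 0.09 (limma adjusted p = 0.955). IQGAP1, a scaffold bound by S100P, rose by 0.39 ± 0.12 (limma adjusted p = 0.0241), and the kinase STK38, which S100B binds, fell by 0.48 (SE 0.14; limma adjusted p = 0.0188). These 3 calls depended on single arrays. That of ANXA1 was lost without histamine replicate 1 (-0.30) or control replicate 2 (-0.28). That of STK38 was lost without histamine replicate 2 (-0.42) or control replicate 1 (-0.45) or 2 (-0.44). That of IQGAP1 was lost without any 1 array except control replicate 3, with values of 0.34 to 0.41, and with median scaling (0.18).

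Of the transcription factors described for S100 genes in keratinocytes, 15 of 17 were tested: 5 rose and 10 did not pass, none as lower, against 9.29% of all genes as higher and 12% as lower. Their median log2 difference was 0.15, against -0.08 over all genes. Since this list was chosen with earlier results known, nothing is read from its share. GRHL3, a factor of the epidermal barrier, rose by 1.47 ± 0.23 and KLF5 by 1.43 ± 0.20 (limma adjusted p = 0.000297 and 9.9e-05). Both sizes rest on the background correction. GRHL3 differed by 1.07 with an offset of 50, by 0.71 without background correction and by 0.51 in the authors' processed value table, and KLF5 by 1.27, 1.05 and 0.90 in the same order. The mean of the kept GRHL3 probes gave 0.91; the dimmer of them gave 0.36 and did not pass in the fit of single probes. The KLF5 values were 8.99, 8.72 and 9.06 with histamine and 7.0, 7.56 and 7.92 in the control group. KLF4, which drives barrier formation, rose by 0.87 ± 0.21, IRF1 by 0.50 ± 0.12 and CEBPD by 0.42 ± 0.13 (limma adjusted p = 0.00648, 0.00608 and 0.0352). KLF4 differed by 0.54 in the authors' processed value table. Its dimmer kept probe gave 0.60, with overlapping groups, and did not pass in the fit of single probes. IRF1 and CEBPD lost their calls with median scaling (0.30 and 0.22). CEBPD lost it also without any 1 of the histamine replicates 1 (0.37) and 2 (0.38) and the control replicates 2 (0.36) and 3 (0.39). STAT3, CEBPB, NFKBIZ, RELA and NFKB1, which relay cytokine signals to S100 promoters, differed by -0.22 to 0.15 and did not pass. HIF1A differed by 0.06 ± 0.15 on its brightest probe, which did not pass. The others gave 0.71 and 1.63 and both passed as higher in the fit of single probes, so its probes disagree.

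The list of receptors upstream of S100 genes held cytokine receptors and the growth factor receptor EGFR. Of its 15 names, 14 were on the array and 9 were tested: 2 fell and 7 did not pass, none as higher. Their median log2 difference was -0.30, against -0.08 over all genes. EGFR fell by 0.61 (SE 0.11) and IL20RA, a chain of the receptors for IL20 and IL24, fell by 0.79 (SE 0.21; limma adjusted p = 0.0012 and 0.0127). IL20RA read 6.37, 6.51 and 6.23 with histamine and 7.34, 7.14 and 6.98 in the control group, with no overlap, and lost its call without control replicate 1 (-0.69) or 2 (-0.78). Without background correction IL20RA differed by -0.41, and in the authors' processed value table by -0.30, against -0.56 and -0.55 for EGFR. IL17RA, the receptor chain for IL17A, differed by -0.36 ± 0.24 (limma adjusted p = 0.308). IL1RAP, the shared chain of IL1 and IL36 receptors, gave -0.31 on its brightest probe, which did not pass. Another probe, annotated to a different transcript of the gene, gave 1.18 and passed as higher in the fit of single probes. These probes disagree in sign, and which form of the chain each measured was not tested. Of the S100-fused-type proteins, large epidermal proteins with an S100 domain at one end, 2 of 7 were tested. FLG (filaggrin) rose by 0.71 ± 0.14 (limma adjusted p = 0.00209), with no call under median scaling (0.51), and TCHH differed by 0.41 ± 0.25 (limma adjusted p = 0.253).

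**Figure D3:**
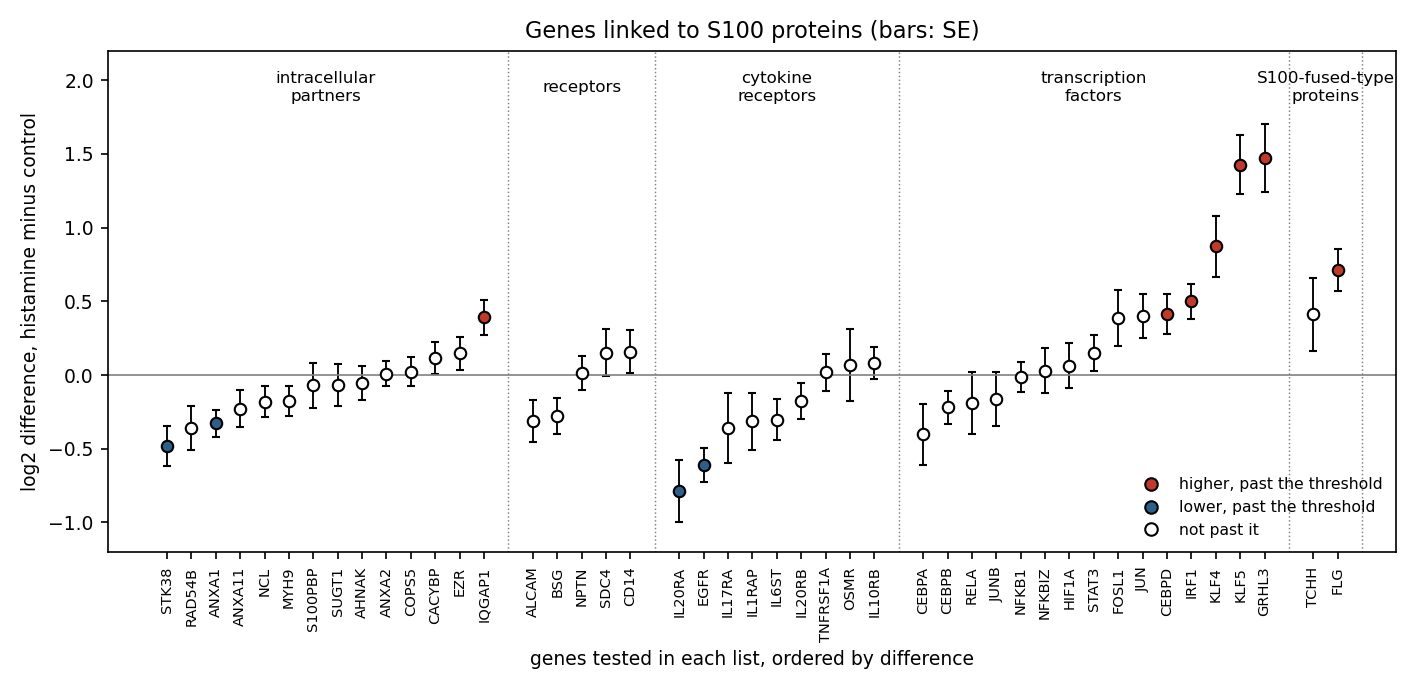
Log2 difference, histamine minus control, of each tested gene in 5 lists of genes linked to S100 proteins; points are the fitted differences, bars the SE, and filled points passed the threshold. GRHL3 and KLF5 stand at 1.47 and 1.43 and IL20RA at -0.79 with the background correction used; without it the order of the genes differs, GRHL3 at 0.71, KLF5 at 1.05 and IL20RA at -0.41.

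The size of the S100 differences, and of the linked genes with dim probes, depended on the background correction. The 4 S100 genes, chosen on this contrast, were called with and without it. S100P differed by 0.61 without background correction and by 0.51 in the authors' processed value table.

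**Figure D4:**
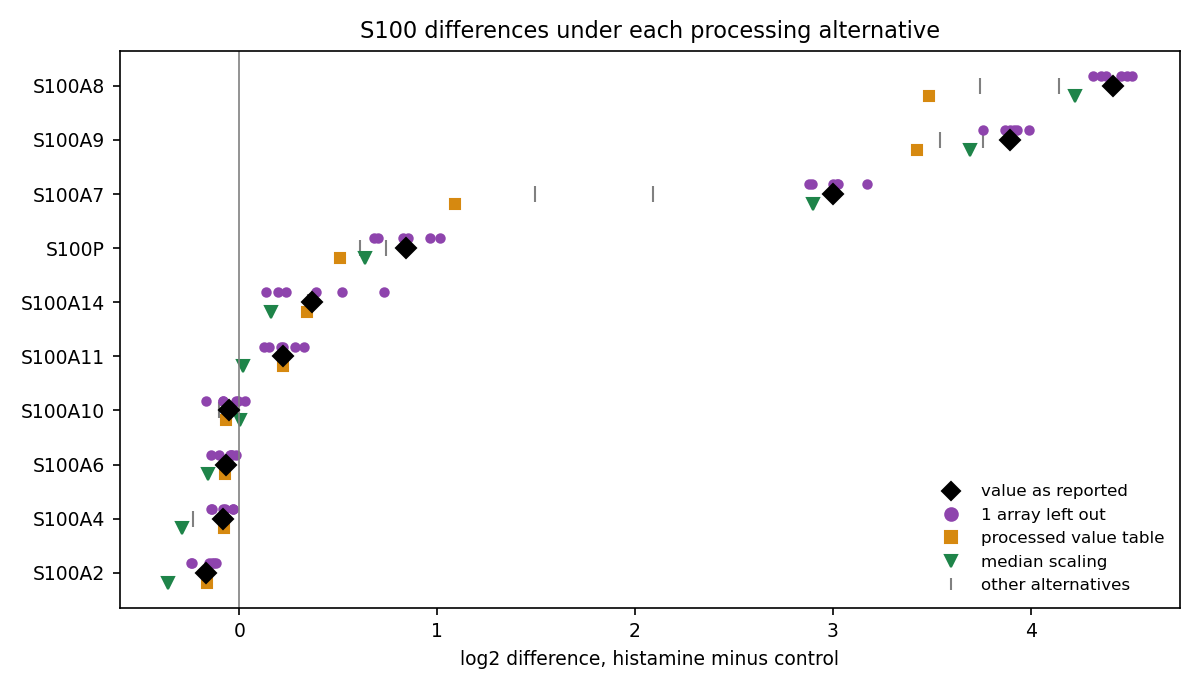
Log2 difference, histamine minus control, of the 10 S100 genes as reported (black diamonds) and under each alternative: 1 array left out (purple), the processed value table (orange), median scaling (green) and others (grey). The fitted value of S100A7, not detected in the control group, spreads from 1.09 to 3.17, while S100A8 is lowest at 3.48 and S100A9 at 3.42, and S100A14 moves from 0.14 to 0.73.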

How the data were processed

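Bead-level averages of signal intensity were deposited for each probe as non-normalized data. The column headers do not state whether background was subtracted. Each average has a detection p-value, deposited beside it, that ranks it among negative control beads. The authors also deposited processed values on a scale resembling log2; all 6 arrays share the median 7.46, and the transform behind them is unknown. Per the submitters' processing notes, GenomeStudio 2010.1 and lumi were used.

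Here, limma 3.58.1 in R 4.3.3 (with statmod 1.5.0) removed background by normexp, fed with the detection p-values (offset 16), followed by quantile normalization and log2. Kept probes (17871 of 47322) had a detection p-value below 0.05 in 3 or more of the 6 arrays. Of all probes 30112 carry 1 gene symbol, 8 several and 17202 none. For each of 10406 genes the brightest kept probe was used. Histamine was compared with control by limma (empirical Bayes with an intensity trend), 2-sided, with Benjamini-Hochberg adjustment over all genes. The median SE was 0.17, and the number of arrays limits the precision. A gene detected on no array of a group has a bound in place of a fold. The fit was tested on simulated data.

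The S100 genes and the lists of linked genes were chosen with earlier results of these data known. Named genes are all S100 genes and up to 5 called genes per list; the others were chosen after their values were seen. Samples were treated as unpaired. Deviations of same-numbered arrays correlated at -0.05 to -0.03 across genes, which shows no pairing by replicate number but cannot exclude it. The alternatives tried are in the closing section.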

Additional observations from a re-analysis of the deposited data

How the results depend on the processing

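In 17 alternatives S100A8, S100A9 and S100P stayed higher and past the threshold, as did S100A7 in the 16 that kept it. These calls are a description, since the genes were chosen on this contrast and every alternative reused these arrays. S100A7 passed the main filter only through the histamine arrays, so its calls lend no support. It was not tested with a filter of detection at 0.01 on all 6 arrays, since it is not detected on the control arrays. The 4 S100 genes called became 3 with that filter, 5 with all kept probes tested singly, where 1 S100 gene, S100A4, was also called lower, and 4 to 6 with 1 array left out. S100A10, which was not called, turned sign with median scaling (0.0024) and without histamine replicate 2; with 1 array left out it ranged between -0.17 and 0.0264. With median scaling the median of all genes was -0.26, against -0.08, and 20.1% of calls were higher, against 43.6%. Changed genes numbered 2220, and 1476 with no filter on dim probes, 1372 without the intensity trend, 3915 as single probes, and, with 1 array left out, 1226 (without control replicate 2) to 2555 (without control replicate 3), with 1452 without control replicate 1. With the replicate number as a block they numbered 1905, and the 4 S100 genes were again called; of the linked genes the block ended only the CEBPD call. The 11 linked genes called became 6 without the intensity trend, which ended the calls of ANXA1, IQGAP1, CEBPD, KLF4 and IRF1, 8 with no filter on dim probes, which ended those of ANXA1, CEBPD and IL20RA, and, with 1 array left out, 7 (without control replicate 2) to 12. The cause of these losses was not tested. Weak signal over background limits S100A7 to a bound and leaves S100A12, TLR4 and AGER unmeasured.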
